A study of Mus musculus with 6 samples.

Results

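Major urinary proteins (Mup), lipocalins (Lcn) and odorant-binding proteins (Obp) were followed in mTECs, the medullary epithelial cells of the thymus, which transcribe genes of peripheral organs and show the products to developing T cells. The members were every gene of the deposited tables whose symbol is Mup or Lcn followed by a digit, or begins with Obp. This gave 29 of 20443 genes, namely 16 Mup, 10 Lcn and 3 Obp genes. The cells were sorted from C57BL/6 mice aged 4 weeks. The Jmjd3-deficient group comprised 3 libraries from mice that carried floxed Jmjd3 alleles together with Foxn1-cre (cKO_262, cKO_263 and cKO_265). The control group comprised 3 libraries from mice with the same floxed alleles (Con_253, Con_261 and Con_264), and the labels name no Cre for them. Foxn1-cre is active in thymic epithelium, and Jmjd3, gene symbol Kdm6b, removes methyl groups from lysine 27 of histone H3. An effect of the Cre construct and one of the loss of Jmjd3 cannot be told apart in this design.

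All 3 families belong to the lipocalins, small secreted proteins with a barrel-shaped pocket that holds a hydrophobic ligand. Mup proteins are made chiefly in mouse liver and in glands of the head, and they carry volatile pheromones in urine and secretions. Obp proteins bind odorants in nasal mucus. Most of the Lcn genes studied here are known from the epididymis or the nose, whereas Lcn2 encodes a protein that binds bacterial siderophores and is released by neutrophils and inflamed epithelium. Apart from Lcn2, the genes are usually silent outside those organs, and mTECs are among the few cells that transcribe such tissue-restricted genes.

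The Mup genes were the members whose sequence bears most on their values, because many are near copies of each other on chromosome 4. In GENCODE M21 (GRCm38), coding sequences of 10 of the 16 genes (Mup1, Mup2, Mup7, Mup8, Mup9, Mup10, Mup12, Mup13, Mup14 and Mup15) were 98.3% to 99.6% identical to each other, gaps counted as differences. The other 6 (Mup3, Mup4, Mup5, Mup6, Mup20 and Mup21) were 82.2% to 91.03% identical to these 10. A stretch of 60 coding bases shows this difference. It is the gap-free stretch where the genes shown differ most, and is given 5′ to 3′ on the coding strand with Mup10 as the base of comparison. Capitals mark bases that differ from Mup10.
Mup6: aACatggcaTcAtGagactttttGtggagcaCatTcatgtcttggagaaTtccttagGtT
Mup4: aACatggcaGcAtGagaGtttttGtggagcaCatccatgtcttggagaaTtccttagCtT
Mup20: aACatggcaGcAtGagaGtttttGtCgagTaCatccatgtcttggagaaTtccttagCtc
Mup5: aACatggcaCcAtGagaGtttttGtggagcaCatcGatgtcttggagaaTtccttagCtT
Mup10: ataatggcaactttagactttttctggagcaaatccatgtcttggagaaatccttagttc
Mup2: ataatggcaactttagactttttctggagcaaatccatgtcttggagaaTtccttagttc
Mup15: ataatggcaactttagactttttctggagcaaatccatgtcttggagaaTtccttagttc
In this stretch Mup6 and Mup4 differed from Mup10 at 11 bases each, Mup20 and Mup5 at 12 each, and Mup2 and Mup15 at 1 each. The stretch begins at coding base 155 of Mup10 and at coding base 152 of Mup6.

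The same contrast was seen over whole transcripts. Each coding transcript was cut into all its overlapping words of 50 bases, and each word was looked up on both strands in every annotated transcript of the genome. In the 10 near-identical genes 0% to 14.6% of the words occurred in no other gene, and in Mup2 and Mup15 there were 0 such words. In the other 6 genes the share was 49.5% for Mup20, 80.7% for Mup21, 82.9% for Mup5, 84.4% for Mup3, 87.6% for Mup4 and 95.7% for Mup6. All words of the 10 Lcn transcripts occurred in no other gene. The share was 92.8% for Obp1a, 88.3% for Obp2a and 88.1% for Obp2b. Obp2a and Obp2b were 71.7% identical in coding sequence. How the authors' counting divided reads between such copies was not given in the sources used here, so the values of the near-identical Mup genes are uncertain.

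Promoters of 23 of the 29 members were found in the RefSeq table (GRCm38.p6). In the 250 bases before the start these held 0 to 3 CG pairs with a median of 2, whereas the median over all 32851 promoters of the table was 6. The letters TATAAA, searched on both strands, occurred in 7 of the 23 (30.4%) and in 12.4% of all promoters. The last 80 bases before the start are shown for the highest Mup genes, for Lcn2 and Obp2a as the highest Lcn and Obp genes, and for Mup10 as one of the near-identical genes, with TATAAA in capitals. They lie at chr4:60003401-60003480 on the plus strand for Mup6, chr4:59960668-59960747 on the minus strand for Mup4, chr2:32387740-32387819 on the minus strand for Lcn2, chr2:25699994-25700073 on the plus strand for Obp2a and chr4:60582156-60582235 on the minus strand for Mup10.
Mup6: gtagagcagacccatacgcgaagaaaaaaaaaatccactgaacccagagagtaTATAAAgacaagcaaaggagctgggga
Mup4: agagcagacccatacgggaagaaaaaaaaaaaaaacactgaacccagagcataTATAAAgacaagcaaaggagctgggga
Lcn2: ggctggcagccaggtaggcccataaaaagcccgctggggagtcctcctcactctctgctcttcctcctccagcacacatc
Obp2a: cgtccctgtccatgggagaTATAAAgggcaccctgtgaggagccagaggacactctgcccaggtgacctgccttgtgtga
Mup10: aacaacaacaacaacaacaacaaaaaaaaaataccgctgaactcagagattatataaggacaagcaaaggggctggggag
In Mup4 and Mup6 the motif began at position -27 from the start, and in Obp2a at position -61. These positions depend on the start used. For Obp2a the start was at 25700074, whereas GENCODE M21 begins the gene at 25700043, nearer the motif. GENCODE M21 begins Mup4 at 59960710 and Mup10 at 60582199, both inside the stretches shown. It begins Mup6 at 59964294 and Lcn2 at 32388252, so that the stretches shown for these lie wholly inside the GENCODE genes. In Lcn5, Obp2b, Lcn3 and Obp1a the motif began at -28, -28, -29 and -30. The Mup10 stretch held no TATAAA, which says only that these letters are not in this window.

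Levels are in FPKM (fragments per kilobase of transcript, scaled by the mapped fragments), which the tables give without counts, so the depth is unknown. Where 3 values are given for a group, they stand in the order cKO_262, cKO_263, cKO_265 for the deficient libraries and Con_253, Con_261, Con_264 for the controls. Summed FPKM was 582835 to 641060 in the Jmjd3-deficient libraries and 461152 to 543156 in the control libraries. All 15 mTEC markers, Aire and Epcam among them, were at 1 FPKM or more in every library. Summed thymocyte markers were at 30.7 to 40.1 FPKM in the deficient and 43.8 to 71.7 FPKM in the control libraries, and summed tuft-like markers at 57.04 to 76.02 FPKM in the deficient and 168.3 to 211.9 FPKM in the control libraries. Of the 12 tuft-like markers 4 fell (Rgs13, Avil, Sh2d7 and Plcb2, limma adjusted p of 0.0113 to 0.0384), against 0.0573% of all tested genes. All 12 had lower values with an unadjusted p under 0.05, against 7.82% of all tested genes (median log2 fold change -1.62). None of the 4 passed when any 1 control library was left out. Without cKO_262, Sh2d7 and Plcb2 did not pass (limma adjusted p of 0.0528 and 0.0544), nor did Plcb2 without cKO_263 (0.0692). Summed dendritic cell and macrophage markers were at 293.1 to 330.01 FPKM in the deficient and 382.5 to 434.6 FPKM in the control libraries, and summed endothelial markers at 5.87 to 6.36 FPKM in the deficient and 7.84 to 8.67 FPKM in the control libraries. Lyz2 made up most of the dendritic cell and macrophage sum (241.7 to 275.1 FPKM deficient, 324.2 to 362.2 FPKM control). Aif1 of the same list was higher instead, at 10.1 to 16.1 FPKM in the deficient and 3.85 to 4.73 FPKM in the controls. Its log2 fold change was 1.46 (limma adjusted p = 0.0555), and the other 7 tested genes of that list had negative values. The part of these cell types in the results was not tested. Fewer cells of a type and less RNA per cell cannot be told apart in sorted bulk samples. The targeted gene Kdm6b, whose deleted part the labels do not give, was at 11.1, 11.6 and 8.67 FPKM in the deficient libraries, against 18.1, 17.1 and 9.998 FPKM in the controls. The difference did not pass the test (log2 fold change -0.45, SE 0.23, limma adjusted p = 0.418). The 4 Y-linked genes read summed to 0.0266 to 0.110 FPKM in the deficient libraries, to 12.6 FPKM in Con_253 and to 0.0402 and 0.0526 FPKM in the other controls. By these genes a single control library appeared to come from a male, and the labels give no sex. In the fit with library weights cKO_265 had the lowest weight, 0.263. Leaving out both Con_253 and cKO_265 gave 0 members past the threshold, as did leaving out any 1 library.

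The libraries of sorted mTECs held transcripts of members of all 3 families, but few at a high level. Of the 29 members 8 were at 1 FPKM or more in all 6 libraries, whereas 61.2% of all genes were. These were Lcn2, Obp2a, Lcn11, Lcn8, Lcn10, Mup6, Mup4 and Mup20. A further 14 members were under 1 FPKM in every library, with a highest single value of 0.957 FPKM, and 3 of these (Mup2, Mup10 and Mup15) were listed at 0 throughout. The number of members at 1 FPKM or more was 10, 11 and 14 in the deficient libraries and 13, 10 and 13 in the controls.

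Ordered by mean level, Lcn2 and Obp2a stood first and overlapped between libraries, and Obp2a and Lcn11 overlapped as well. The lowest library of Lcn11 (10.97 FPKM in cKO_262) lay above the highest of the next gene, Lcn8 (10.4 FPKM in cKO_265). This was no step between groups of genes, since Lcn10 reached 10.99 FPKM in cKO_263. Lcn8, Mup6, Lcn10 and Mup4 overlapped in their ranges. Lcn2 lay at the 93.4th percentile of all genes by mean level, Obp2a at the 89.3rd, Lcn11 at the 78.3rd and Mup6 at the 60.4th.

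**Figure D1:**
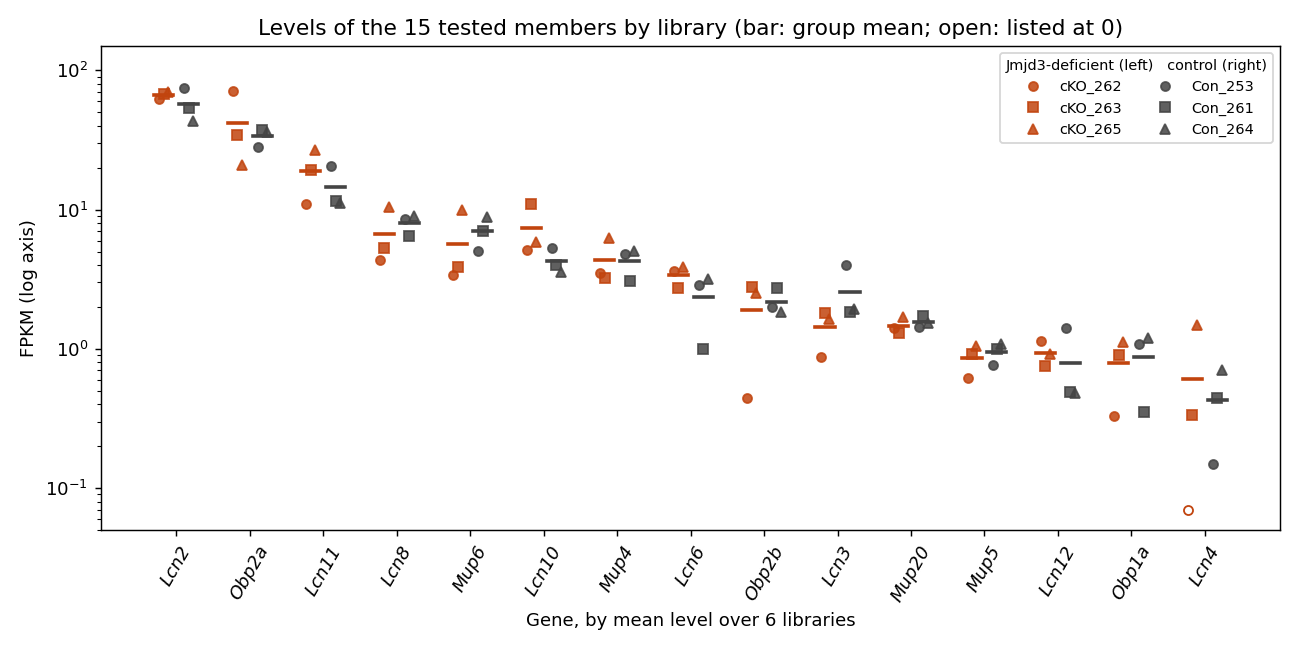
Levels of the 15 members that averaged 0.5 FPKM or more, in each library, on a log axis, with Jmjd3-deficient libraries in orange on the left and control libraries in grey on the right. Bars are group means, and an open symbol at the foot of the axis is a value listed at 0 (Lcn4 in cKO_262). For every gene except Lcn3 the ranges of the groups overlap.

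The test covered every gene that averaged 0.5 FPKM or more across the libraries, which took in 15 of the 29 members (8 Lcn, 4 Mup and 3 Obp genes) among 15720 genes. None of the 15 members passed an adjusted p under 0.05 (limma), where 0.0763% of all tested genes did (0.0191% higher and 0.0573% lower in the deficient group). None had an unadjusted p under 0.05, against 14.6% of all tested genes (6.81% higher and 7.82% lower). The groups did not overlap for 1 of the 15 (Lcn3, lower), against 21.5% of all tested genes (9.59% higher and 11.9% lower). With library weights (arrayWeights) 3 members passed, Lcn10 and Lcn6 higher and Mup6 lower, in a fit where 19.2% of all tested genes passed. The log2 fold change was positive for 7 members and negative for 8 (by mean FPKM 8 were higher and 7 lower in the deficient group, since Mup4 turned), with a median log2 fold change of -0.01, against -0.04 over all tested genes. The sign of 4 of the negative ones (Mup4, Mup5, Mup20 and Obp1a) turned under quantile normalization and under median centring. A positive fold change means a higher value in the deficient group, and since 1 FPKM was added before taking log2, the change of low genes is understated. Fold changes ran from -0.52 for Lcn3 to 0.61 for Lcn10, with limma adjusted p from 0.347 to 0.988.

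The precision sets what these values can show. For 9 members the 95% interval of the log2 fold change lay wholly between -1 and 1, and for the other 6 (Lcn3, Lcn6, Lcn10, Lcn11, Mup6 and Obp2b) it reached past one of these bounds. This precision depends on the added 1 FPKM: with 0.1 FPKM added instead, 4 intervals (Lcn2, Mup4, Mup5 and Mup20) lay within the bounds and 11 reached past them. The median half-width of the interval was 0.61 for the members (0.88 with 0.1 FPKM added) and 0.44 over all tested genes. The median SD within groups was 0.40 for the members and 0.23 over all tested genes, both on the log2 scale. Just inside the 0.5 FPKM limit stood Lcn4 (mean 0.517 FPKM over 6 libraries), and just outside it Lcn5 (0.451 FPKM) and Mup9 (0.423 FPKM).

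**Figure D2:**
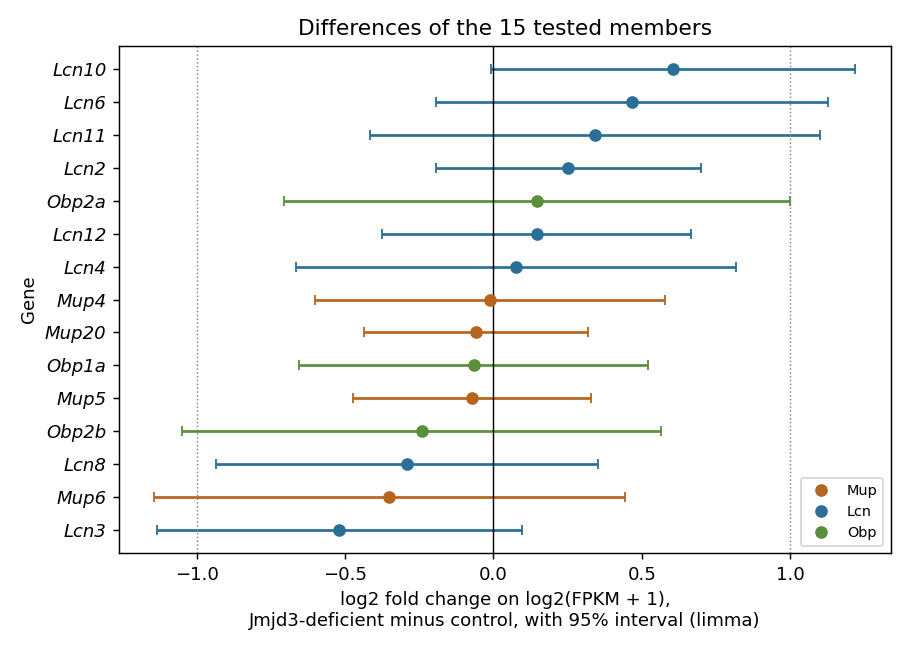
Log2 fold changes of the 15 tested members with their 95% intervals (limma, after adding 1 FPKM), positive where deficient libraries were higher, coloured by family. Every interval includes 0, that of Lcn10 by the smallest margin (-0.0064 to 1.22), and dotted lines mark -1 and 1.

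Among the Mup genes, most of the listed FPKM stood under Mup4 and Mup6, and the values of the near-identical genes are uncertain. Mup6 was at 3.39, 3.87 and 9.87 FPKM in the deficient libraries, against 5.09, 7.03 and 8.85 FPKM in the controls. cKO_265 was the highest of all libraries and the other deficient libraries the lowest, so that the controls lay inside the deficient range. The log2 fold change was -0.35 (SE 0.35, limma adjusted p = 0.689). It ranged from -0.76 without cKO_265 to -0.11 without cKO_262 and was -0.94 without both Con_253 and cKO_265, where the limma adjusted p was 0.133.

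Mup4, which is known from the nasal and vomeronasal mucosa, was at 3.50, 3.23 and 6.30 FPKM in the deficient libraries, against 4.79, 3.09 and 5.02 FPKM in the controls. The groups overlapped widely (log2 fold change -0.01, SE 0.26, limma adjusted p = 0.988). Together Mup4 and Mup6 held 62.8% to 78.6% of the summed Mup FPKM in the deficient libraries and 67.04% to 76.7% in the control libraries.

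Mup20 encodes darcin, the male urinary protein that attracts females. It was at 1.41, 1.29 and 1.69 FPKM in the deficient libraries, against 1.43, 1.72 and 1.54 FPKM in the controls. The highest and the lowest library differed 1.33-fold, the narrowest spread of any tested member. Only 49.5% of the Mup20 transcript words occurred in no other gene, so the unknown division of shared reads may bear on Mup20 too. With 1 FPKM added its interval was the tightest, and with 0.1 FPKM added that of Lcn2 was (Mup20 log2 fold change -0.06, 95% interval -0.44 to 0.32). Mup5, known from salivary glands, was at 0.613, 0.912 and 1.05 FPKM in the deficient and 0.764, 0.996 and 1.08 FPKM in the control libraries (log2 fold change -0.07, SE 0.18, limma adjusted p = 0.890).

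Sequence of its own did not go with a high level in every Mup gene. Mup3, a liver Mup, was at 0.418, 0.957 and 0.118 FPKM in the deficient libraries, against 0.104, 0.271 and 0.453 FPKM in the controls. Mup21 reached at most 0.241 FPKM and was listed at 0 in cKO_263 and Con_253. Neither gene was tested, and both overlapped between groups.

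The 10 near-identical genes summed to 0.602, 1.04 and 1.42 FPKM in the deficient libraries, against 1.05, 1.74 and 0.922 FPKM in the controls. The highest value of any of them in any library was 0.741 FPKM (Mup9 in Con_261). Rows of Mup2 and Mup15 stood at more than 1 locus of the tables, and these loci also held rows of Mup7 or Mup14. A further 4 entries joined the symbol Gm2083 with Mup genes and were not members by the rule. Of these the entry for Mup17 was at 0.288 and 1.43 FPKM in cKO_262 and cKO_263 and was listed at 0 in cKO_265, against 0.949, 0.226 and 0.774 FPKM in Con_253, Con_261 and Con_264. The entry for Mup11 and Mup2, at the locus of the Mup10 row, was at 0.0943 and 0.0935 FPKM in cKO_262 and cKO_263. It was at 0.192 FPKM in Con_264 and listed at 0 in the other libraries. The 0 of Mup2 thus covers only the rows under its own symbol. The entries for Mup16 and Mup19 were listed at 0 in all 6 libraries.

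**Figure D3:**
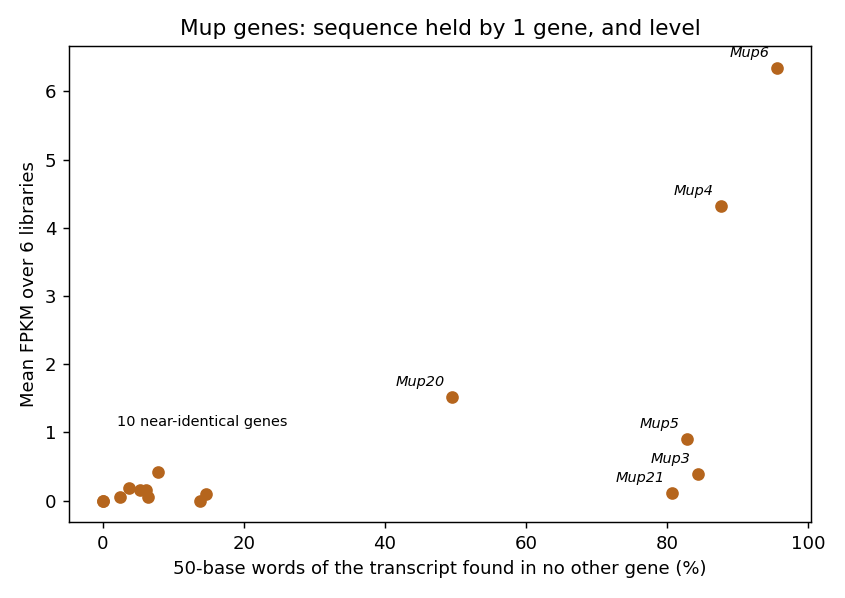
The 16 Mup genes by the share of 50-base words of their transcript found in no other gene (horizontal axis, %) and by their mean FPKM over 6 libraries (vertical axis). The 10 near-identical genes lie at the lower left, Mup4 and Mup6 at the upper right, and Mup3 and Mup21 at the lower right.

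Summed Mup FPKM was 10.04, 11.3 and 20.6 in the deficient libraries and 13.2, 15.1 and 18.1 in the controls. Con_253, the library with Y-linked expression, was the lowest of the controls and lay inside the range of the deficient libraries. Without Con_253 the median log2 fold change of the 4 tested Mup genes was -0.12, and with it -0.07. Whether sex bears on these levels was not tested.

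Of the Lcn genes Lcn2 was the highest. It lies on chromosome 2 from 32384637 to 32387739 (mm10), apart from the other lipocalins, with 6 exons and protein coding. It was at 62.9, 67.99 and 69.7 FPKM in the deficient libraries, against 74.6, 53.5 and 43.7 FPKM in the controls. The deficient libraries lay close together, inside the range of the controls, at 66.9 ± 3.55 FPKM against 57.3 ± 15.8 FPKM (SD, n = 3 each). The log2 fold change was 0.25 (SE 0.20, 95% interval -0.19 to 0.70, limma adjusted p = 0.593). It was 0.46 without Con_253 and 0.078 without Con_264, and passed in neither case.

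Since neutrophils carry Lcn2, their markers were read beside it. The 12 granulocyte markers summed to 211.5, 303.9 and 589.1 FPKM in the deficient libraries, against 312.2, 236.6 and 289.6 FPKM in the controls. At 1 FPKM or more in every library were 7 of the 12, Mmp8 and Retnlg were under 1 FPKM throughout, and 0 of the 12 were at 0 in all libraries. The sum was carried by S100a8 and S100a9, which epithelium also makes, and S100a9 reached 293.9 FPKM in cKO_265. Elane, the neutrophil elastase gene, was listed at 0 in cKO_262, Con_253 and Con_261 and reached 1.30 FPKM in cKO_265. Other genes of the list were present in every library. Mpo was at 10.8 to 11.1 FPKM in the deficient and 10.2 to 14.3 FPKM in the control libraries. In the same order, Cxcr2 was at 5.22 to 10.3 FPKM and 4.76 to 7.43 FPKM, and Ngp at 2.38 to 3.47 FPKM and 2.84 to 4.02 FPKM. The granule genes Camp and Ltf were at 17.4 to 25.7 FPKM and 16.9 to 25.7 FPKM in the deficient libraries, and at 22.9 to 66.1 FPKM and 22.6 to 27.05 FPKM in the controls. The part of such cells in the Lcn2 level was not tested. Of 21 tested genes that regulate Lcn2 or are induced with it, 0 passed the threshold. The median was -0.18, against -0.04 over all tested genes. At an unadjusted p under 0.05 were 0 higher and 5 lower, against 6.81% higher and 7.82% lower over all tested genes. Saa1, an acute-phase apolipoprotein, averaged 47.9 ± 11.3 FPKM in the deficient and 98.4 ± 27.9 FPKM in the control libraries (limma adjusted p = 0.149), and Chi3l1 39.1 ± 3.81 FPKM against 54.6 ± 8.56 FPKM (adjusted p = 0.240).

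A cluster of 9 members lies on chromosome 2 between 25653118 and 25825537 (mm10), in the order Lcn8, Lcn5, Lcn6, Lcn10, Obp2a, Obp2b, Lcn3, Lcn11 and Lcn9. Neighbours differed widely in level. Lcn8 averaged 7.34 FPKM over the 6 libraries and the adjacent Lcn5 0.451 FPKM, and Lcn11 averaged 16.7 FPKM and the adjacent Lcn9 0.282 FPKM. The cluster summed to 98.05, 77.5 and 72.4 FPKM in the deficient libraries, against 72.04, 65.95 and 67.3 FPKM in the controls. The deficient libraries lay above the controls, narrowly so for cKO_265. Of all tested genes 9.59% did not overlap and were higher in the deficient group (21.5% in either direction), a share of single genes and not of sums. Summed FPKM over all genes was also higher in the deficient libraries, and as a share of it the cluster held 0.0168%, 0.0122% and 0.0113% in the deficient libraries, against 0.0133%, 0.0130% and 0.0146% in the controls. By share, cKO_262 was thus the highest library and the other deficient libraries the lowest. Obp2a alone gave 71.4 of the 98.05 FPKM in cKO_262.

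**Figure D4:**
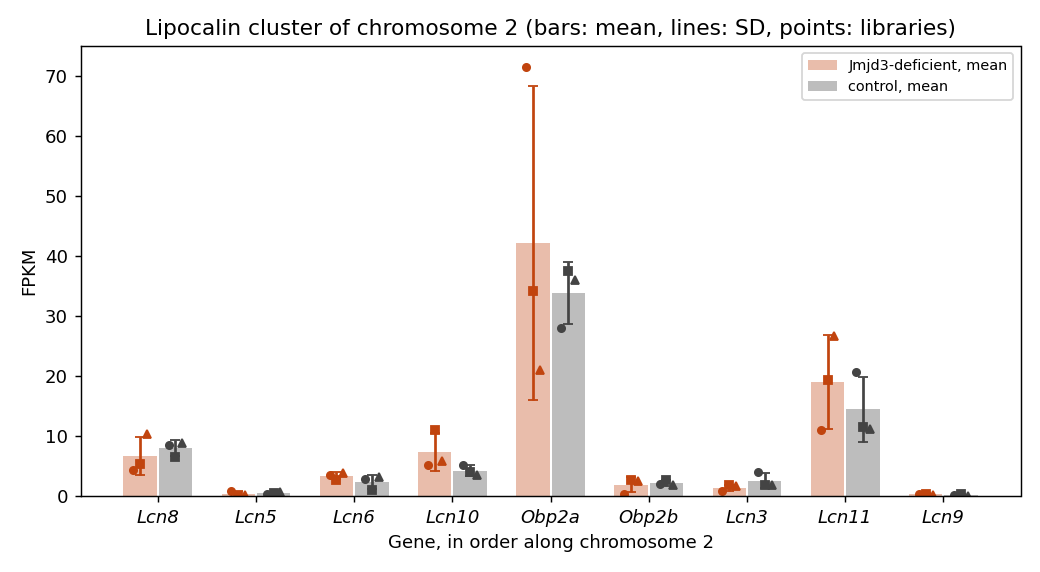
The 9 genes of the chromosome 2 cluster in their order along the chromosome, with FPKM on a linear axis. Bars are means of Jmjd3-deficient (left of each pair) and control libraries (right), lines are SD (n = 3 each) and points are libraries; Obp2a and Lcn11 stand out, and Obp2a in cKO_262 is the highest point.

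Epididymal lipocalins came from this cluster and from Lcn12 nearby. Lcn8, a secreted protein of the epididymis, was at 4.36, 5.33 and 10.4 FPKM in the deficient libraries, against 8.53, 6.46 and 8.94 FPKM in the controls. As for Mup6, cKO_265 was the highest library and the other deficient libraries the lowest (log2 fold change -0.29, SE 0.28, limma adjusted p = 0.682).

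Lcn10, also epididymal, had the smallest unadjusted p among the members. It was at 5.16, 10.99 and 5.84 FPKM in the deficient libraries, against 5.27, 3.98 and 3.58 FPKM in the controls. The high mean of the deficient group rested on cKO_263, and cKO_262 lay below Con_253. The fold change (0.61 in log2, SE 0.27) missed the threshold with a limma adjusted p of 0.347, and without cKO_263 it was 0.31.

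Lcn6 had 2 rows at the same locus, which were summed. The sum was 3.61, 2.75 and 3.89 FPKM in the deficient libraries, against 2.88, 0.991 and 3.15 FPKM in the controls (log2 fold change 0.47, SE 0.29, 95% interval -0.19 to 1.13). The rows split the gene differently between libraries. In the deficient libraries the first row was at 1.51, 0.792 and 2.22 FPKM and the second at 2.10, 1.96 and 1.67 FPKM, so that both were used. In the controls the first row was at 2.58e-05, 5.95e-05 and 3.15 FPKM and the second at 2.88, 0.991 and 0.0041 FPKM, so that 1 row held nearly all of it, the second in Con_253 and Con_261 and the first in Con_264. A value for a single row of Lcn6 is therefore not comparable between libraries.

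The remaining epididymal genes were low. Lcn12 was at 1.15, 0.751 and 0.922 FPKM in the deficient and 1.41, 0.493 and 0.484 FPKM in the control libraries. Lcn5, which binds retinoic acid, was at 0.885 and 0.245 FPKM in cKO_262 and cKO_265 and was listed at 0 in cKO_263, against 0.395, 0.491 and 0.690 FPKM in the controls. Lcn9 lay between 0.138 and 0.453 FPKM in the deficient and 0.105 and 0.361 FPKM in the control libraries. Of 16 other secretory genes of the epididymis that were tested, 0 passed the threshold. The median was -0.01, against -0.04 over all tested genes. At an unadjusted p under 0.05 were 1 higher and 1 lower, against 6.81% higher and 7.82% lower over all tested genes. The higher one was Clu, which is also made in many other tissues, at 1072 ± 82.3 FPKM in the deficient and 726.96 ± 84.6 FPKM in the control libraries (limma adjusted p = 0.174), and the lower one was the cystatin gene Cst11 (adjusted p = 0.279).

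The nasal members were led by Obp2a. It was at 71.4, 34.1 and 21.05 FPKM in the deficient libraries, against 28.01, 37.6 and 35.9 FPKM in the controls. The deficient libraries spread 3.39-fold and enclosed the controls, with cKO_262 the highest and cKO_265 the lowest of all libraries. The log2 fold change was 0.15 (SE 0.37, limma adjusted p = 0.895), and without cKO_262 it was -0.31.

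Obp2b showed the opposite order in cKO_262. It was at 0.441, 2.76 and 2.53 FPKM in the deficient libraries, against 1.98, 2.74 and 1.84 FPKM in the controls (log2 fold change -0.24, SE 0.35, limma adjusted p = 0.799). Obp1a, on chromosome X, was at 0.327, 0.902 and 1.13 FPKM in the deficient and 1.08, 0.350 and 1.20 FPKM in the control libraries.

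Lcn3 and Lcn4 encode vomeronasal secretory proteins. Lcn3 was at 0.876, 1.82 and 1.64 FPKM in the deficient libraries, against 3.98, 1.83 and 1.92 FPKM in the controls. It was the one tested member whose groups did not overlap, with cKO_263 at 1.82 FPKM just under Con_261 at 1.83 FPKM, and Con_253 held the high value. The log2 fold change was -0.52 (SE 0.27, limma adjusted p = 0.420), and without Con_253 it was -0.25. Lcn4 was listed at 0 in cKO_262 and was at 0.333 and 1.48 FPKM in cKO_263 and cKO_265, against 0.148, 0.442 and 0.703 FPKM in the controls.

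Lcn11 was the third-highest member. It was at 10.97, 19.3 and 26.7 FPKM in the deficient libraries, against 20.7, 11.5 and 11.2 FPKM in the controls (log2 fold change 0.34, SE 0.33, limma adjusted p = 0.680). The deficient libraries enclosed the controls here too, in the reverse order to that of Obp2a.

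Members differed from each other in which deficient library was high. Of the 15 tested members 6 were highest in cKO_265 and 8 were lowest in cKO_262, whereas 24.1% of all tested genes were highest in cKO_265 and 15.2% were lowest in cKO_262. The control libraries lay inside the deficient range for 6 members (Lcn4, Lcn8, Lcn11, Mup6, Obp2a and Obp2b), against 22.8% of all tested genes. The SD of log2 values was larger in the deficient than in the control group for 10 of the 15 members and for 64.7% of all tested genes.

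Genes of the same secretions and of the liver were read beside the members. Of 12 tested nasal, lacrimal and pheromone genes 1 fell and 0 rose, 4 had an unadjusted p under 0.05, and 11 of the 12 had lower values in the deficient group (median log2 fold change -0.21, against -0.04 over all tested genes). All 4 with an unadjusted p under 0.05 were lower, as were 7.82% of all tested genes, 0.0573% of all tested genes passed as lower, and 54.7% had a negative log2 fold change. The gene that fell was Cyp2g1, a cytochrome P450 of the olfactory mucosa, at 10.6 ± 1.81 FPKM in the deficient and 33.5 ± 5.10 FPKM in the control libraries (limma adjusted p = 0.0249). Its log2 fold change was -1.58, and between -1.71 and -1.45 with any 1 library left out. It did not pass without cKO_263 (adjusted p = 0.0692) or without any 1 control library (adjusted p of 0.142 to 0.184), where all genes past the threshold numbered 2 in place of 12. Without both Con_253 and cKO_265 it was -1.36 (adjusted p = 0.0615). Cyp2a5, another nasal and hepatic cytochrome P450, averaged 66.4 ± 15.3 FPKM in the deficient and 137.6 ± 16.7 FPKM in the control libraries (adjusted p = 0.113). Scgb1b27, an androgen-binding protein gene, was at 0.330 FPKM in cKO_263 and listed at 0 in the other deficient libraries, against 0.843, 0.788 and 1.83 FPKM in the controls (adjusted p = 0.152). Its partner Scgb2b27 had a log2 fold change of -0.75 (adjusted p = 0.253).

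Other genes of the lipocalin and fatty acid-binding fold numbered 23 tested, of which 0 passed. The median was 0.10, against -0.04 over all tested genes. At an unadjusted p under 0.05 were 4 higher and 1 lower, against 6.81% higher and 7.82% lower over all tested genes. Orm2, an acid glycoprotein of liver, averaged 24.7 ± 9.13 FPKM in the deficient and 10.98 ± 1.41 FPKM in the control libraries (limma adjusted p = 0.132). C8g, the lipocalin chain of complement C8, averaged 23.9 ± 1.86 FPKM against 15.1 ± 5.92 FPKM (adjusted p = 0.253), and Fabp4, a fatty acid carrier, 274.2 ± 78.7 FPKM against 405.9 ± 44.7 FPKM (adjusted p = 0.242). Of 5 tested receptors and carriers 0 passed and 0 had an unadjusted p under 0.05 (median 0.06). The Lcn2 receptor gene Slc22a17 averaged 6.43 ± 1.81 FPKM in the deficient and 4.96 ± 1.35 FPKM in the control libraries (adjusted p = 0.587), and Stra6, the receptor for retinol-binding protein, 27.3 ± 4.82 FPKM against 22.9 ± 2.54 FPKM (adjusted p = 0.581).

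In liver, Mup genes are driven by growth hormone through Stat5b. Of 21 tested genes of that axis and of liver transcription factors 0 passed. The median was -0.02, against -0.04 over all tested genes. At an unadjusted p under 0.05 were 1 higher and 3 lower, against 6.81% higher and 7.82% lower over all tested genes. The transcription factor genes Foxa3 and Cebpa had log2 fold changes of -0.74 and -0.69 (limma adjusted p of 0.291 and 0.299). Stat5a averaged 240.9 ± 19.1 FPKM in the deficient and 187.9 ± 27.7 FPKM in the control libraries (adjusted p = 0.329), and Ghr, the growth hormone receptor, 1.99 ± 0.465 FPKM against 3.04 ± 0.483 FPKM (adjusted p = 0.339). Of 18 tested liver secretory genes 0 passed, 3 higher and 2 lower had an unadjusted p under 0.05, and the median was -0.12. Those with higher values were the fibrinogen genes Fgg, Fga and Fgb (log2 fold changes 1.74, 0.77 and 0.83, adjusted p of 0.119, 0.165 and 0.240). Of the lower ones Serpina3k had the smallest p (log2 fold change -0.58, limma adjusted p = 0.252). Log2 fold changes were positive for 7 and negative for 11 of the 18.

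Aire, which drives many tissue-restricted genes in mTECs, was at 504.2, 455.7 and 317.4 FPKM in the deficient libraries, against 398.9, 348.01 and 230.3 FPKM in the controls (log2 fold change 0.40, SE 0.25, limma adjusted p = 0.5004), so it did not pass. Fezf2, another regulator of such genes, was at 235.4, 232.7 and 192.5 FPKM in the deficient libraries, against 232.2, 239.97 and 186.9 FPKM in the controls, and like Aire it was lowest in cKO_265 and Con_264.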

How the data were processed

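RNA was sequenced from sorted mTECs in 6 libraries; per the labels' protocols, column-purified RNA went through whole-transcriptome amplification with a kit meant for single cells. The authors deposited 1 table of FPKM per library. The submitters' processing notes name Bowtie2 2.2.5, Cufflinks and the build mm10, with no roles or order. Not given in the sources used here were the annotation, the strand setting, the Cufflinks version and how libraries were scaled. The tables hold no counts, so depth is unknown, and a value of 0 is given as listed at 0.

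Rows of 1 symbol were summed, and 44 rows of 25 symbols turned into calendar dates were left out. Starts were raised by 1 base. Genes averaging 0.5 FPKM or more were compared with limma 3.58.1 (R 4.3.3) after taking log2(FPKM + 1) (eBayes with trend, 2-sided, Benjamini-Hochberg over 15720 genes, threshold 0.05), after a test on simulated data. Groups were taken from the sample titles, and each title has its own number, so there was no pairing. The labels do not say that the libraries came from separate mice, so p-values measure the spread between these libraries, which may be technical in part. Transcript words and coding alignments used GENCODE M21 with Biopython 1.88, and promoters RefSeq. Every member is accounted for. Members at 0.5 FPKM in the mean or 1 FPKM in any library are given per library. Outside the lists of cell type markers, 2 to 4 genes of a list are given by smallest p. Marker lists of cortical epithelium, B cells, fibroblasts and erythroid cells were also read, and their sums overlapped between groups. Mup3, Mup17 and a few markers were added after their values were seen. The division of the Mup genes by shared words was also made after the shares were seen. Members and lists were chosen with earlier results of these data known. Alternatives were another pseudocount (0.1), no filter, a stricter one (5 FPKM on average), quantile normalization, median centring, arrayWeights, leaving out joined symbols and leaving out libraries.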

Additional observations from a re-analysis of the deposited data

How the results depend on the processing

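No member passed the threshold with another pseudocount, filter or scaling, with joined symbols left out or without any 1 library or both Con_253 and cKO_265 (0 in each). With arrayWeights 3 members passed, Lcn10 at 0.99, Lcn6 at 0.88 and Mup6 at -0.62, in a fit that called 3025 genes (19.2% of those tested); it gave Con_261 a weight of 8.72 and the other libraries 0.263 to 2.01. Genes of the lists past the threshold numbered 5 (Cyp2g1 and 4 tuft-like markers), against 3 without a filter, 54 with arrayWeights, 3 without both Con_253 and cKO_265, and 0 to 6 with 1 library left out (0 without any 1 control library). The median of the tested Mup members was -0.35 at a mean of at least 5 FPKM, where only Mup6 was left. Signs turned for members near 0: under quantile normalization Mup4 (0.085), Mup20 (0.056), Mup5 (0.053) and Obp1a (0.082); under median centring Mup4 (0.069), Mup20 (0.022), Mup5 (0.0087) and Obp1a (0.015); with arrayWeights Mup4 (0.071), Obp1a (0.33) and Lcn4 (-0.094); and with a pseudocount of 0.1 Lcn4 (-0.22). With 1 library left out, values ranged from -0.31 to 0.54 for Obp2a, -0.26 to 0.13 for Mup4, -0.49 to 0.20 for Obp2b, -0.15 to 0.026 for Mup5, -0.29 to 0.13 for Obp1a and -0.074 to 0.36 for Lcn4, which was not tested without cKO_265 or Con_264. The other 9 tested members kept their sign but not their size: 0.067 to 0.67 for Lcn11, -0.61 to -0.069 for Lcn8, 0.13 to 0.66 for Lcn6, -0.76 to -0.11 for Mup6, 0.078 to 0.46 for Lcn2, 0.027 to 0.38 for Lcn12, 0.31 to 0.79 for Lcn10, -0.66 to -0.25 for Lcn3 and -0.12 to -0.0072 for Mup20. The causes were not tested. Depth is unknown, so it sets no limit that can be given. No paired analysis was possible because the groups share no replicate numbers.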
